A study of Mus musculus with 12 samples.

Results

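The SCFA effect averaged over both genotypes is the mean of 2 differences in gene expression, SCFA-treated minus untreated in control mice and SCFA-treated minus untreated in homozygous mice. All 12 libraries of the series carry it, 6 treated and 6 untreated, and 15674 genes could be tested. An average can come from 1 genotype alone. Genes are therefore described by their average, and many also by the change in each genotype. Attention went to genes that moved the same way in both. The study is titled for short-chain fatty acids (SCFAs) and osteoclast-driven bone remodelling in arthritis, and its 4 groups cross genotype with treatment, 3 libraries each. Marrow of mice aged about 8 weeks was held for about 24 hours in alpha-MEM, after which the non-adherent cells, labelled progenitors, were harvested for polyA RNA. Mice drank either untreated water or water with SCFAs until that age; the labels give neither the acids nor their dose. Control mice carry only the label "control", with no allele named. Homozygous mice are labelled STAT3Cstopfl/fl CD4Cre, and for homozygous untreated 1 the label adds R26, the Rosa26 locus. In such mice a constitutively active STAT3 lies behind a stop cassette, and Cre under the Cd4 promoter, active mainly in T lineage cells, removes it. T lineage markers summed to 109 to 192 CPM per library, where CPM is the count scaled to a common library total.

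SCFAs are made by gut bacteria from dietary fibre. They act on cells through surface receptors such as Ffar2 and Hcar2, enter cells through monocarboxylate transporters, serve as fuel after activation to acyl-CoA, and some of them inhibit histone deacetylases. Bone marrow makes red cells, platelets, granulocytes, monocytes and B cells, and the monocyte branch also gives rise to osteoclasts, the cells that resorb bone.

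Library totals ranged from 16954355 to 20748995 counts, and 20101 to 22272 genes had a count in a library. At these depths a gene with 0 counts could be present at up to 0.143 to 0.178 CPM (counts over the TMM-scaled library total), a limit of 3 counts that covers counting error only. Every untreated library is labelled month 3, day 1, and every SCFA library month 3, day 30, so treatment and label date cannot be told apart in any value below. The control untreated libraries were spread along the second principal component (17.8% of the variance), at 4.63, 87.4 and 41.5 for replicates 1, 2 and 3. Whether replicate libraries came from separate mice is not stated, and p-values then measure only the spread between libraries, which may be technical. Stem and progenitor markers summed to 409 to 711 CPM per library, with 13 of 15 passing the filter on low counts, and late neutrophil markers summed to 42100 to 86800 CPM.

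On average over the genotypes, 452 genes rose under SCFA (2.88% of those tested) and 593 fell (3.78%), 6.67% in all, by edgeR's quasi-likelihood test at a Benjamini-Hochberg adjusted p under 0.05. In all, 5931 of the 15674 genes (37.8%) had the same sign in both genotypes, and the 2 treatment effects differed by the interaction test for 3938 genes (25.1%). Of the rises, 421 had the same sign in both genotypes, 70 were called in each of them (0.447% of tested genes), 228 in control only, 106 in homozygous only and 48 in neither. By itself the control contrast called 8.89% of tested genes as rises and 13% as falls, and the homozygous contrast 3.96% and 5.61%. Of the falls, 461 had the same sign, 121 were called in each genotype (0.772%), 166 in control only, 282 in homozygous only and 24 in neither. A further 279 genes (1.78%) were called in both genotypes with opposite directions. With no test, the 3 SCFA libraries lay above the 3 untreated ones in each genotype for 1.74% of genes and below for 1.95%. Of these, 137 genes had all 6 SCFA libraries above all 6 untreated ones (0.874%) and 138 had them below (0.88%). In bulk RNA, fewer cells of a type and less RNA per cell cannot be told apart, and this holds for every group of genes below. The counts of each list below stand beside shares over all genes of 2.88% rises and 3.78% falls.

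**Figure D1:**
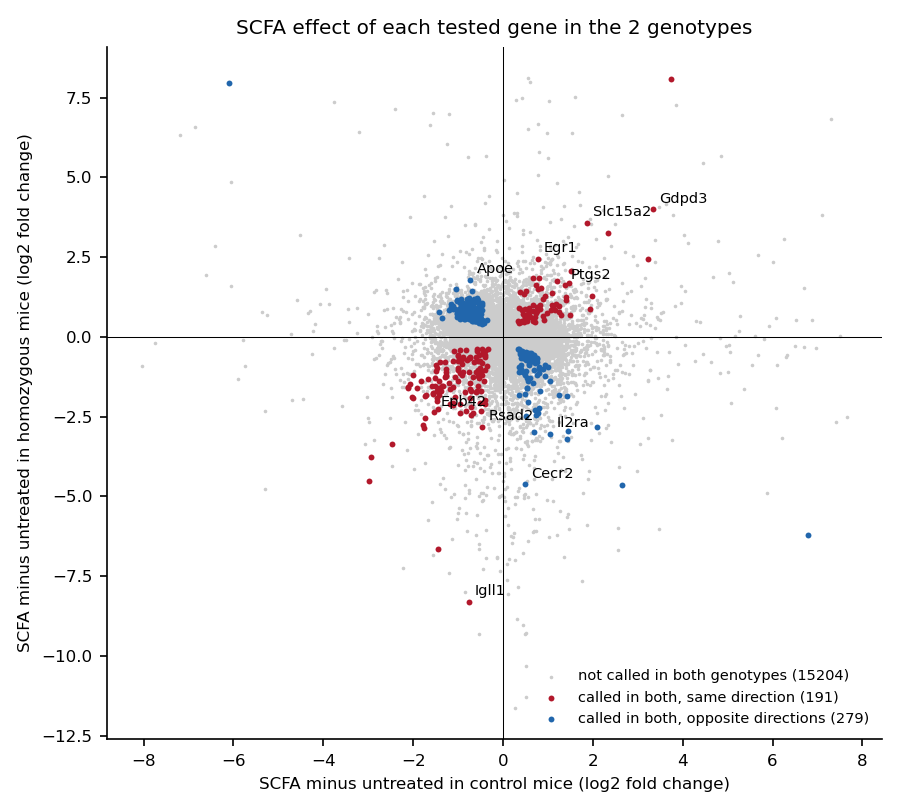
SCFA minus untreated log2 fold change of each of the 15674 tested genes in control mice (horizontal) and homozygous mice (vertical). Red points are the 191 genes called in both genotypes in the same direction, blue points the 279 called in opposite directions and grey points all others.

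The counts moved with single libraries. Without control untreated 1, 891 genes rose and 1034 fell on average, and 685 were called in opposite directions. Fewer rises were called without control untreated 3 (287), homozygous untreated 1 (286), homozygous untreated 3 (231), control SCFA 1 (285), control SCFA 3 (234), homozygous SCFA 1 (236) or homozygous SCFA 3 (269), and fewer falls without control SCFA 3 (362). Rises called in both genotypes numbered 42 without control untreated 3, 46 without homozygous untreated 1, 38 without homozygous untreated 3, 43 without control SCFA 2, 23 without control SCFA 3, 46 without homozygous SCFA 2 and 38 without homozygous SCFA 3. Falls called in both numbered 80, 73 and 70 without control untreated 3, control SCFA 2 and control SCFA 3. Opposite calls numbered 149 without control untreated 3, 119 and 80 without homozygous untreated 1 and 2, 102 and 49 without control SCFA 2 and 3, and 87 and 86 without homozygous SCFA 2 and 3. Interaction calls numbered 2579 without homozygous untreated 2, 2478 without control SCFA 3 and 2455 without homozygous SCFA 2. An additive model, which has 1 treatment term for both genotypes and leaves their disagreement in the residual spread, called 140 rises and 180 falls. All 320 of those calls were among the 1045 above.

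The largest rise shared by the genotypes was that of Gdpd3, a lysophospholipase D that releases lysophosphatidic acid. It was at 2.51, 3 and 1.81 CPM in control untreated, 25.8, 26.2 and 22.2 in control SCFA, 1.57, 1.13 and 1.8 in homozygous untreated and 19.7, 28.2 and 25 CPM in homozygous SCFA libraries. The 6 SCFA libraries all lay above the 6 untreated ones, at nearly the same level in both genotypes. The averaged log2 fold change was 3.68 ± 0.175 (SE, edgeR adjusted p = 2.3e-08), with 3.34 in control and 4.01 in homozygous mice, and the interaction was not called (adjusted p = 0.154). On mm10 Gdpd3 is a protein-coding gene at chromosome 7, 126766334 to 126775649, plus strand. It shares up to 196 exon bases with the noncoding Gm9967 on the other strand, and the strand setting of the counting is not given in the sources used here.

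Slc15a2, a proton-coupled peptide transporter, was at 8.49, 5.95 and 4.4 CPM in control untreated, 22.9, 18.6 and 27 in control SCFA, 0.488, 0.873 and 0 in homozygous untreated and 7.35, 2.66 and 6.38 CPM in homozygous SCFA libraries. It rose by 2.72 ± 0.39 (SE, adjusted p = 0.00047). Within each genotype the groups did not overlap, which the rule for naming the largest rises and falls required. Homozygous SCFA libraries overlapped control untreated ones. Gucy1b1, the beta subunit of the nitric oxide receptor guanylate cyclase, was at 3.76, 2.79 and 4.5 CPM in control untreated, 14.9, 13.2 and 15.4 in control SCFA, 7.48, 7.19 and 5.41 in homozygous untreated and 18.2, 14.7 and 16.2 CPM in homozygous SCFA libraries. All SCFA libraries were above all untreated ones, with an averaged log2 fold change of 1.63 ± 0.15 (SE, adjusted p = 8.6e-06). Hpgds, which makes prostaglandin D2, rose by 1.40 on average, 1.93 in control and 0.87 in homozygous mice. Cd226, an adhesion and activating receptor of lymphocytes and platelets, rose by 1.33, and Mrvi1, a target of cGMP-dependent kinase, by 1.31. Mrvi1 had 0.80 in control and 1.83 in homozygous mice, with an interaction call (adjusted p = 0.0085). Pls1, an actin-bundling protein, rose by 1.24. Shtn1, known from neuronal axon growth, rose by 1.60, with 1.23 in control (adjusted p = 0.066) and 1.97 in homozygous mice, where it was called.

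**Figure D2:**
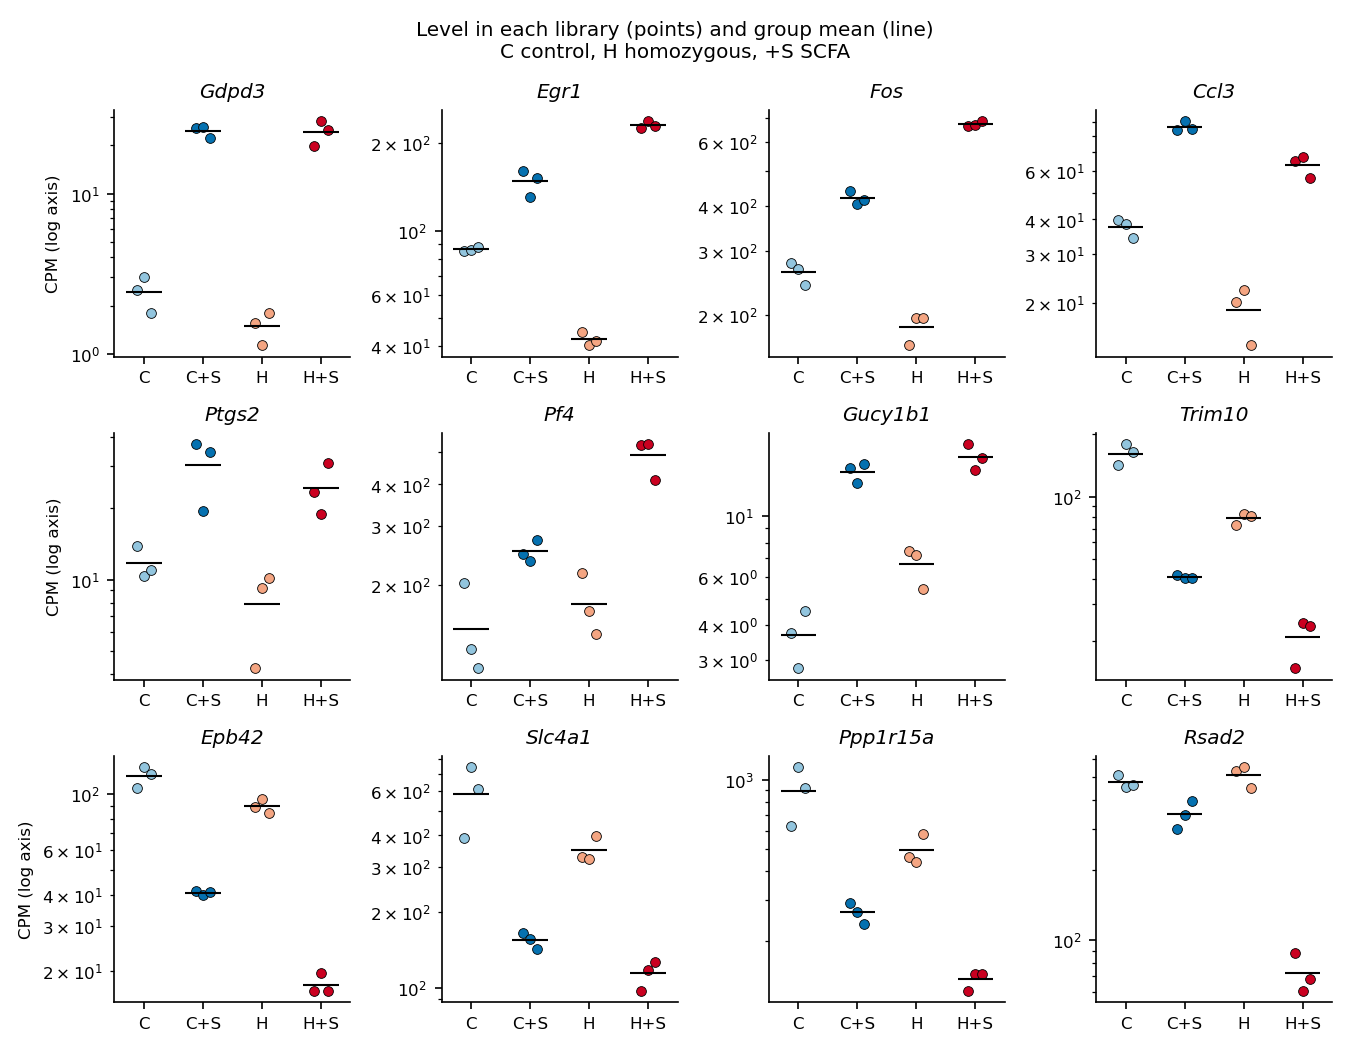
Level in CPM (log axis) of 12 genes in each of the 12 libraries, 3 points a group, with the group mean as a line; C is control, H homozygous and +S SCFA. The 6 SCFA libraries lie on one side of the 6 untreated libraries for Gdpd3, Egr1, Fos, Ccl3, Ptgs2, Pf4, Gucy1b1, Trim10, Epb42, Slc4a1, Ppp1r15a and Rsad2, and the size of the step differs between genotypes most for Rsad2 and Egr1.

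Immediate early genes, which are transcribed within minutes of a stimulus, were next. Of 17 tested among 19 listed, 7 rose and none fell on average, 3 of them in both genotypes. The median log2 fold change was 0.35 against -0.02 over all genes. It was 0.20 in control, where 4 rose and 3 fell, and 0.83 in homozygous mice, where 11 rose and none fell. Egr1, a zinc finger factor on chromosome 18 (34859823 to 34864984 on mm10), was at 85.4, 86 and 87.7 CPM in control untreated, 161, 131 and 152 in control SCFA, 44.7, 40.3 and 41.9 in homozygous untreated and 226, 238 and 229 CPM in homozygous SCFA libraries. No SCFA library overlapped an untreated one, but untreated homozygous libraries were the lowest and SCFA homozygous libraries the highest. The average of 1.61 ± 0.08 (SE, adjusted p = 2.3e-08) joins 0.78 in control and 2.45 in homozygous mice, and the interaction was called (adjusted p = 1.6e-05). Fos, the partner of Jun in AP-1 and a factor that osteoclasts require, had the same order. It was at 278, 268 and 242 CPM in control untreated, 439, 404 and 416 in control SCFA, 165, 196 and 196 in homozygous untreated and 664, 666 and 683 CPM in homozygous SCFA libraries. The averaged rise was 1.27 ± 0.08 (SE, adjusted p = 1.3e-07).

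Dusp1, a phosphatase that turns off MAP kinases, rose in both genotypes, by 0.37 and 1.40. Egr2 rose by 1.53 on average through homozygous mice (2.64, against 0.41 with adjusted p = 0.23 in control). Klf6 rose by 0.35 with near-equal changes of 0.39 and 0.31. Zfp36, which destabilises cytokine mRNAs, rose by 0.43, with -0.04 in control and 0.91 in homozygous mice. Junb did not pass on average (0.24, adjusted p = 0.26), since it fell by 0.63 in control and rose by 1.10 in homozygous mice. Under the additive model 3 of the list's rises were called, and those of Egr2, Zfp36 and Klf6 were lost.

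Inflammatory cytokine and chemokine genes gave 9 rises and 1 fall among 19 tested of 21 listed, with a median of 0.55, and 5 rose in both genotypes. Ccl3, a chemokine that attracts monocytes and supports osteoclast formation, was at 39.9, 38.4 and 34.2 CPM in control untreated, 84.1, 90.5 and 85.3 in control SCFA, 20.1, 22.2 and 14 in homozygous untreated and 64.9, 67.6 and 56.7 CPM in homozygous SCFA libraries. All SCFA libraries were above all untreated ones, and the averaged log2 fold change was 1.48 ± 0.11 (SE, adjusted p = 1.2e-06). Ptgs2, the inducible cyclooxygenase, was at 13.8, 10.4 and 11 CPM in control untreated, 37.1, 19.4 and 34.6 in control SCFA, 4.23, 9.19 and 10.2 in homozygous untreated and 23.4, 18.8 and 31 CPM in homozygous SCFA libraries. It rose by 1.5001 ± 0.22 (SE, adjusted p = 0.00064), 1.37 in control and 1.63 in homozygous mice, with no interaction call.

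The neutrophil attractant Cxcl2 rose by 1.48 in control and 0.69 in homozygous mice, and Ccl4 by 0.52 and 1.44. Both differences between genotypes passed the interaction test (adjusted p = 0.030 and 0.013). Il1b, the main secreted interleukin 1, rose by 0.44 and 0.72. The abundant myeloid chemokines Ccl6 and Ccl9 rose by 0.40 and 0.39 on average, but the call of Ccl9 was lost without homozygous untreated 3 (adjusted p = 0.0514) or control SCFA 3 (0.0559). Ccl22, made by dendritic cells, was the single fall of the list (-1.65), from at most 8.36 CPM, and the additive model did not call it.

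Megakaryocyte and platelet genes rose. Of 12 tested, 6 passed upward and none downward, 2 of them in both genotypes, with medians of 0.37 in control, 1.06 in homozygous mice and 0.70 on average. Pf4, the platelet chemokine, was at 202, 128 and 112 CPM in control untreated, 247, 236 and 273 in control SCFA, 216, 166 and 142 in homozygous untreated and 527, 528 and 413 CPM in homozygous SCFA libraries. Every SCFA library exceeded every untreated one, with an average of 1.13 ± 0.15 (SE, adjusted p = 0.00017). Gp1ba, part of the von Willebrand factor receptor, rose in both genotypes, by 0.83 and 1.00. Ppbp, another platelet chemokine, rose by 0.75. The integrin Itgb3 rose by 0.66 on average, with 0.26 in control (adjusted p = 0.17) and 1.06 in homozygous mice. Its interaction was called (adjusted p = 0.0081). Tubb1, the platelet tubulin, rose by 0.55 through homozygous mice alone (-0.15 in control, interaction adjusted p = 0.0015), a call the additive model lost. Itga2b had -0.69 in control and 1.44 in homozygous mice, and its average of 0.38 was not called (adjusted p = 0.17; 0.0221 to 0.688 over the alternatives, under 0.05 with no filter on low counts and by limma-voom). The summed level of the list was 743 to 751 CPM in control untreated, 937 to 1000 in control SCFA, 673 to 810 in homozygous untreated and 1440 to 1650 CPM in homozygous SCFA libraries.

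**Figure D3:**
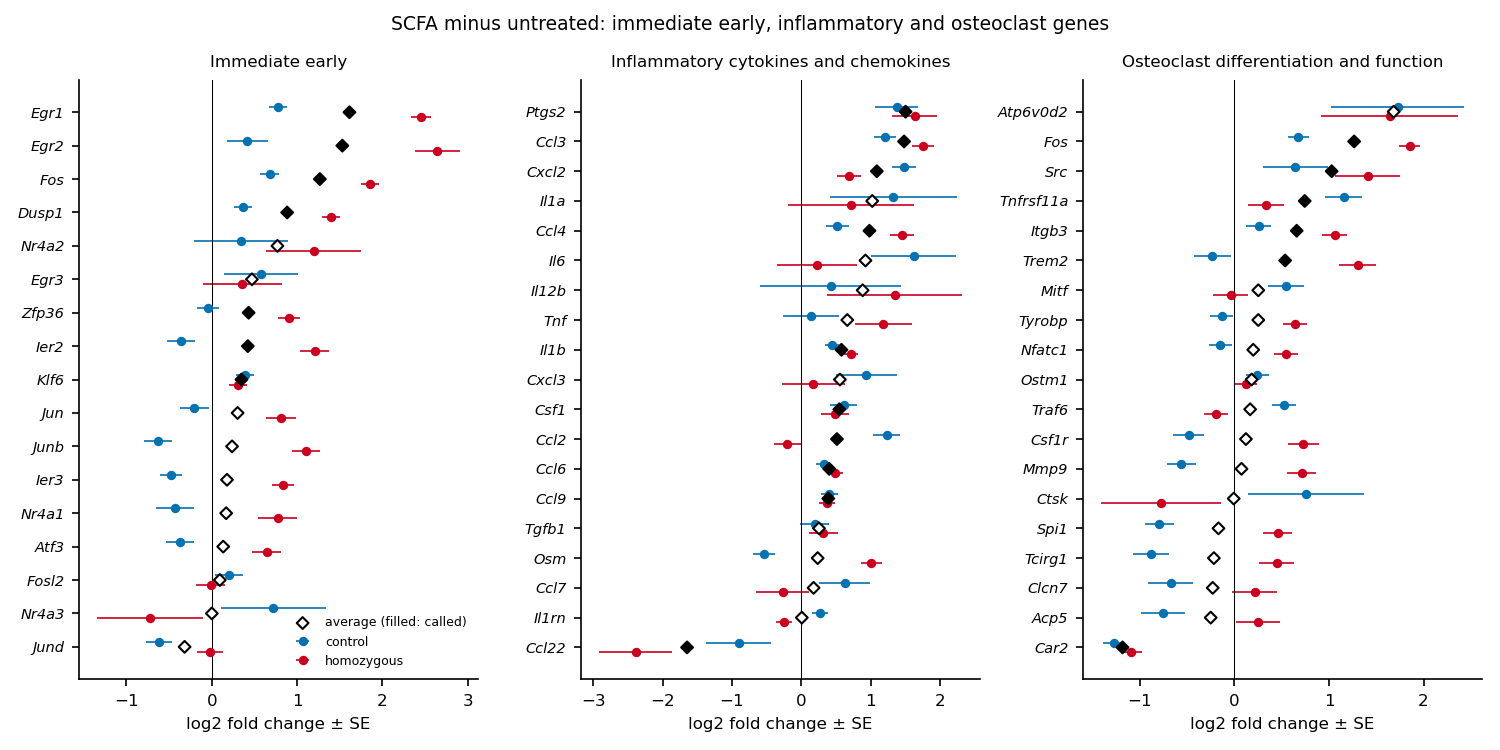
Log2 fold change ± SE of immediate early, inflammatory and osteoclast genes in control (blue) and homozygous mice (red), with the average as a diamond, filled where called. Ccl3, Ptgs2 and Il1b lie near each other in both genotypes, and Egr1, Egr2 and Fos lie farther right in homozygous mice.

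Macrophage markers gave 8 rises and no fall among 17 tested of 18, where 2.88% of all genes rose and 3.78% fell. None was called in both genotypes in the same direction. C1qc, a chain of complement C1q made by tissue macrophages, was at 34.4, 37.5 and 32 CPM in control untreated, 47.5, 40.2 and 37.6 in control SCFA, 20.4, 18.5 and 16.5 in homozygous untreated and 63.9, 68.8 and 63.8 CPM in homozygous SCFA libraries. The log2 fold change was 0.27 in control (adjusted p = 0.17) and 1.82 in homozygous mice, and C1qa and C1qb had the same form. Adgre1, which encodes F4/80, had 0.52 in control (called) and 0.27 in homozygous mice (not called), with no interaction call (adjusted p = 0.31). Its averaged call of 0.40 was lost without homozygous untreated 3 (adjusted p = 0.0551) or control SCFA 3 (0.0520), and 5 rises of the list were called without either library and 2 under the additive model.

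The study's title names osteoclasts, so genes of osteoclast differentiation and function were followed. Of 19 tested among 23 listed, 5 rose and 1 fell on average, where 2.88% of all genes rose and 3.78% fell. In control 3 rose and 6 fell, where 8.89% of all genes rose and 13% fell. In homozygous mice 8 rose and 1 fell, where 3.96% of all genes rose and 5.61% fell. The interaction was called for 12 of the 19, against 25.1% of all genes. The list's median was 0.18 on average, -0.14 in control and 0.46 in homozygous mice. Tnfrsf11a, which encodes RANK, the receptor of the osteoclast-inducing cytokine RANKL, was at 10.3, 14.9 and 14.3 CPM in control untreated, 27.8, 27.7 and 32.4 in control SCFA, 31.8, 19.9 and 27.5 in homozygous untreated and 35.8, 33.6 and 30.3 CPM in homozygous SCFA libraries. Control untreated libraries were the lowest, and the homozygous groups overlapped. The averaged rise of 0.74 ± 0.14 (SE, adjusted p = 0.0040) came from 1.15 in control and 0.33 in homozygous mice (adjusted p = 0.31), with an interaction call (adjusted p = 0.039), and the additive model lost it. Src, the kinase of the osteoclast ruffled border, rose by 1.03 (adjusted p = 0.021), a call lost without homozygous untreated 3 (0.0509) and with no filter on low counts (0.0674). Fos and Itgb3, described above, and Trem2 were the other rises, and Car2, the carbonic anhydrase that red cell precursors also express, was the fall. Without homozygous untreated 3 the list had 3 rises, and 2 under the additive model.

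Nfatc1, the master regulator of osteoclasts, and Acp5, their tartrate-resistant acid phosphatase, were not called on average (0.20 and -0.25). Csf1r, the receptor of the macrophage growth factor M-CSF, averaged 0.12 (adjusted p = 0.58) because it fell by 0.48 in control and rose by 0.73 in homozygous mice. Among 8 tested repressors of osteoclast formation, 3 rose and none fell, where 2.88% of all genes rose and 3.78% fell. Bcl6 rose by 0.47 in each genotype, and Lilrb4a by 0.67 in control against 0.06 in homozygous mice (adjusted p = 0.82). The additive model called 1 of the 3, and without control untreated 1 a repressor gene fell. Csf1r shares up to 873 exon bases with Hmgxb3 on the other strand.

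Of the receptors, transporters and activating enzymes of SCFAs, 9 of 15 passed the filter, 1 rose and 1 fell. The shares over all genes were 2.88% rises and 3.78% falls. Hcar2, a receptor of butyrate and niacin, was at 62.9, 93.6 and 72.1 CPM in control untreated, 102, 105 and 97.2 in control SCFA, 89.6, 75.3 and 79.3 in homozygous untreated and 141, 154 and 164 CPM in homozygous SCFA libraries. All SCFA libraries were above all untreated ones, and the average was 0.66 ± 0.10 (SE, adjusted p = 0.00085). It joins 0.41 in control (adjusted p = 0.052, not called) and 0.91 in homozygous mice, where it was called. Bsg, the chaperone that brings monocarboxylate transporters to the membrane, fell by 0.40 on average, 0.62 in control and 0.17 in homozygous mice, a call the additive model lost. Ffar2 (-0.29, adjusted p = 0.30) and the transporter gene Slc16a1 (-0.20, adjusted p = 0.42) were not called, and 1 of 11 histone deacetylase genes, Hdac9, fell (-0.57, through -1.57 in homozygous mice). Without control untreated 1 each of these lists had 2 falls, while falls over all genes went from 593 to 1034. Without homozygous untreated 1 the first list had 2. No deacetylase gene was called without control SCFA 2 or homozygous SCFA 3, or under the additive model, which kept 30.6% of all calls.

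Red cell genes made up the broadest fall shared by the genotypes. Of 19 erythroid genes tested among 20 listed, 15 fell and none rose on average, and 9 fell in both genotypes, against 0.772% of all genes. The median was -1.18 in control, -1.62 in homozygous mice and -1.23 on average. Epb42, a protein of the red cell membrane skeleton, was at 106, 128 and 120 CPM in control untreated, 41.4, 40 and 41.1 in control SCFA, 89.3, 96.1 and 84.4 in homozygous untreated and 16.6, 19.6 and 16.6 CPM in homozygous SCFA libraries. The averaged fall was -1.94 ± 0.09 (SE, adjusted p = 2.3e-08), larger in homozygous mice (interaction -0.82, adjusted p = 0.0055). Slc4a1, the anion exchanger band 3, was at 391, 744 and 612 CPM in control untreated, 165, 156 and 142 in control SCFA, 328, 322 and 399 in homozygous untreated and 96.9, 118 and 127 CPM in homozygous SCFA libraries. All SCFA libraries of both genes lay below all untreated ones.

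Trim10, a ubiquitin ligase family member of late red cell maturation, was at 142, 179 and 164 CPM in control untreated, 41.8, 40.1 and 40.1 in control SCFA, 72.8, 82.5 and 80.2 in homozygous untreated and 14.7, 24.4 and 23.5 CPM in homozygous SCFA libraries. It fell by 1.99 in control and 1.91 in homozygous mice, with an average of -1.95 ± 0.12 (SE, adjusted p = 1.6e-07) and no interaction call. The Rhesus protein Rhd fell by 1.84, its associated glycoprotein Rhag by 1.53, and Trim58, which acts in enucleation, by 1.77. Tmcc2 and Fhdc1 fell by 1.85 each. Tmcc2 had -2.11 in control and -1.60 in homozygous mice. Fhdc1 had -1.44 and -2.25, with an interaction call (adjusted p = 0.025). Ermap, an erythroid membrane protein, fell by 1.26 and 1.19 in the 2 genotypes, and Klf1, a transcription factor of red cell genes, by 1.19 on average.

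Globin genes fell unevenly. The alpha chain genes Hba-a1 and Hba-a2 fell in both genotypes (-1.38 and -1.70, then -1.18 and -1.63). The beta chain genes Hbb-bs and Hbb-bt were called in homozygous mice only (-2.15 and -1.84, against -0.31 and -0.16 in control), and both differences passed the interaction test (adjusted p = 0.00023 and 0.00081). Members of each globin pair are near-identical, so their reads may have been divided between them or dropped. Globin genes held 1.57% to 1.72% of counts in control untreated, 0.961% to 1.11% in control SCFA, 0.643% to 0.902% in homozygous untreated and 0.175% to 0.219% in homozygous SCFA libraries. The additive model did not call Hbb-bt. Gata1, the factor that starts red cell gene expression, and Tfrc, the transferrin receptor, were not called on average (0.11 and -0.23). The early marker Car1 went from 7.59, 8.27 and 6.76 to 59.4, 46.7 and 45.5 CPM in homozygous mice and had at most 1.65 CPM in control libraries.

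The enzymes of heme synthesis and erythroid iron handling moved with them: 8 of 14 tested fell and none rose, 5 of them in both genotypes. Alas2, the first and rate-limiting enzyme of heme synthesis in red cells, was at 1450, 2170 and 1830 CPM in control untreated, 825, 792 and 781 in control SCFA, 872, 713 and 881 in homozygous untreated and 167, 214 and 186 CPM in homozygous SCFA libraries. Within each genotype the SCFA libraries were lower, and control SCFA overlapped homozygous untreated. The averaged fall was -1.65 ± 0.11 (SE, adjusted p = 2.4e-07). Ppox and Fech, which complete the heme ring, fell by 1.04 and 0.97. Alas2 and Ppox share exon bases on the other strand with Apex2 (up to 311) and B4galt3 (up to 791).

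The upstream windows of 3 of these genes are shown because each holds the letters bound by GATA factors, the regulators of red cell genes. The letters AGATAA were searched on both strands in the 250 bases before each RefSeq gene start, and 10.3% of all 27025 such windows hold them. Capitals mark the match, which begins 86 bases before the start of Alas2, 226 before Epb42 and 163 before Trim10. A match describes the sequence only.
Alas2 (GRCm38.p6, chrX:150547167-150547416, plus strand): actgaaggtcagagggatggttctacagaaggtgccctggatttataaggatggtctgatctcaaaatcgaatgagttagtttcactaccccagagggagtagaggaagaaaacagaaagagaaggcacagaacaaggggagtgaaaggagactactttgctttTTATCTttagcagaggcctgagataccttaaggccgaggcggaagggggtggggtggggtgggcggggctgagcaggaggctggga
Epb42 (GRCm38.p6, chr2:121036878-121037127, minus strand): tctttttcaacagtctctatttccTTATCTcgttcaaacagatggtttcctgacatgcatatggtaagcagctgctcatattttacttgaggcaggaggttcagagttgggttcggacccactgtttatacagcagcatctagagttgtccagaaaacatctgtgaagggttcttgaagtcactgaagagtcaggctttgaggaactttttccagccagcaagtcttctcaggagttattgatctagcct
Trim10 (GRCm38.p6, chr17:36869324-36869573, plus strand): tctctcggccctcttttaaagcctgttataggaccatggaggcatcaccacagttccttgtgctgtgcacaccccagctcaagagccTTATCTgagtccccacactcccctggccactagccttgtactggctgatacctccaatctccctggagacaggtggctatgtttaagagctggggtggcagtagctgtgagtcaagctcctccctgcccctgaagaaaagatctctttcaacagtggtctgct

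**Figure D4:**
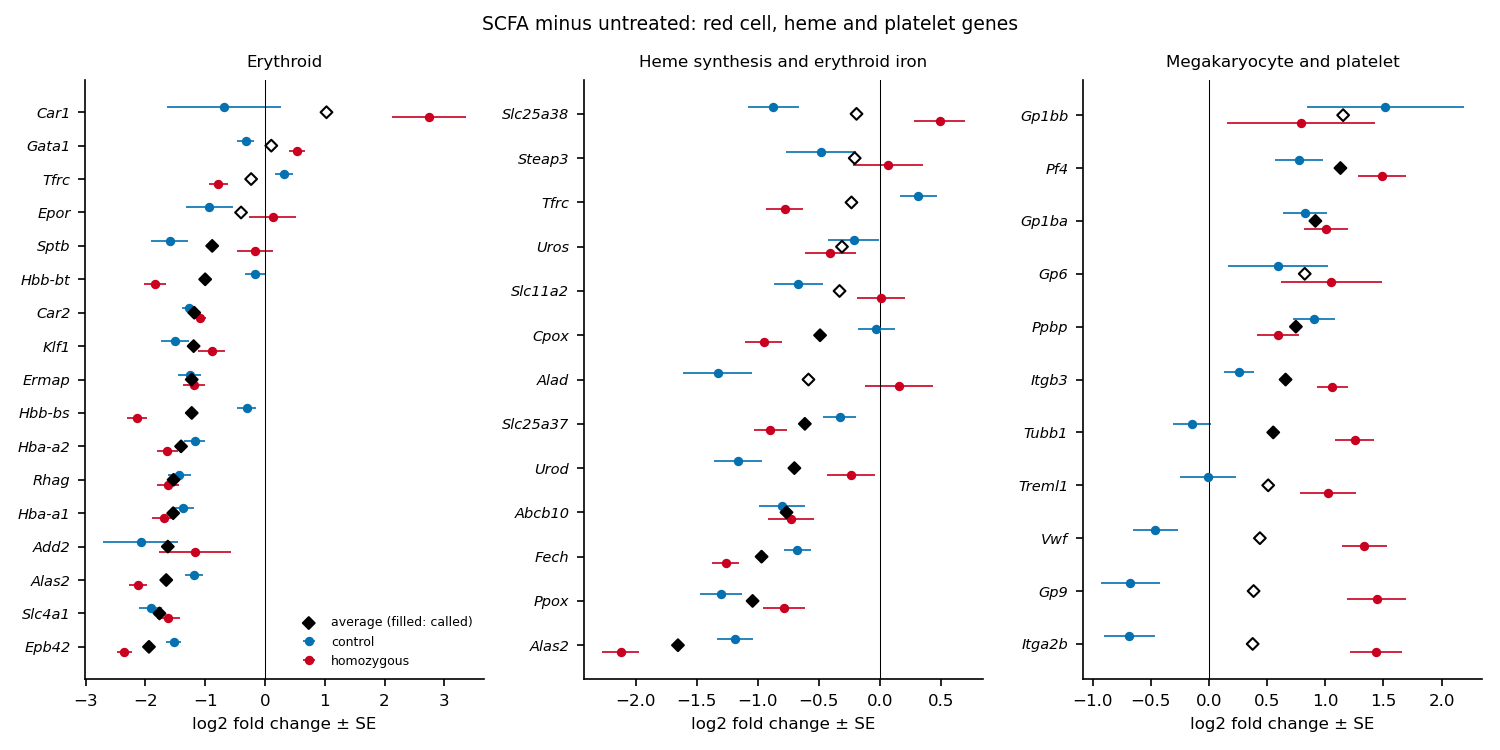
Log2 fold change ± SE of red cell, heme and platelet genes in control (blue) and homozygous mice (red), with the average as a diamond, filled where called. A few members of the lists are not plotted. The called erythroid genes plotted lie left of 0 in both genotypes, Hba-a1, Rhag and Ermap at nearly equal values, and the called platelet genes right of 0 on average.

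Some granule and stress genes fell in both genotypes. Of 17 tested genes of eosinophils, basophils and mast cells, 4 fell and 1 rose, 3 and 1 of them in both genotypes. The eosinophil granule proteins Epx, Prg2 and Prg3 fell by 1.22, 0.69 and 0.76, while Fcer1a, the IgE receptor chain of basophils and mast cells, rose by 1.10. Without control untreated 1 the list had 4 rises. Ppp1r15a, which restores translation after stress, was at 629, 1130 and 916 CPM in control untreated, 293, 268 and 236 in control SCFA, 460, 440 and 583 in homozygous untreated and 121, 144 and 144 CPM in homozygous SCFA libraries. It fell by 1.80 ± 0.13 (SE, adjusted p = 7.5e-07) with near-equal changes in the genotypes (-1.74 and -1.86).

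Among 19 genes of the unfolded protein and amino acid stress responses, 6 fell and 1 rose, where 3.78% of all genes fell and 2.88% rose. In both genotypes 2 of the falls were called, and not the rise. Trib3, a pseudokinase induced by stress, fell by 2.00 and 1.21 in the 2 genotypes, and Ddit3, the factor CHOP, by 1.00 and 0.61. The number of falls was 3 without control untreated 3, homozygous untreated 1, homozygous untreated 3, control SCFA 2 or homozygous SCFA 3, and 2 without control SCFA 3 or under the additive model. The rise, Slc7a11, a cystine importer, came from control mice (0.94, against 0.01), and was lost under the additive model, while 2 rises were called without control untreated 1.

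Genes induced by type I interferon, the antiviral cytokines, fell on average in 23 of 30 cases, but the median was 0.02 in control and -1.61 in homozygous mice. In control 3 members rose and 9 fell, and in homozygous mice none rose and 27 fell. The summed level of the list was 2470 to 2620 CPM in control untreated and 2420 to 2570 CPM in control SCFA libraries. It was highest in homozygous untreated libraries (5460 to 5990 CPM), and 2220 to 2260 CPM in homozygous SCFA libraries. Only 8 fell in both genotypes, namely Rsad2, Usp18, Isg15, Irf7, Oas1a, Oasl1, Stat2 and Bst2. Rsad2, which encodes the antiviral enzyme viperin, was at 511, 452 and 464 CPM in control untreated, 300, 343 and 395 in control SCFA, 532, 551 and 451 in homozygous untreated and 88.5, 60.5 and 68.4 CPM in homozygous SCFA libraries. All SCFA libraries lay below all untreated ones, by 0.46 in control and 2.82 in homozygous mice on the log2 scale, with an interaction call (adjusted p = 1.2e-05). Isg15, a ubiquitin-like modifier, was at 45.9, 54.6 and 58 CPM in control untreated, 30.8, 31.1 and 28.1 in control SCFA, 76.3, 54.8 and 60.9 in homozygous untreated and 11.3, 14.7 and 12.6 CPM in homozygous SCFA libraries. It fell by 0.81 and 2.31. Unlike the list sum, the untreated libraries of the 2 genotypes overlapped for both Rsad2 and Isg15. Usp18, which removes Isg15 from proteins, fell by 1.53 on average, and Irf7, the factor that amplifies the interferon response, by 1.20.

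For Ifit3 and Ifit2 the average came from homozygous mice. Ifit3 fell by 3.52 in homozygous mice and had 0.07 in control, and Ifit2 fell by 2.44 and rose by 0.73. The additive model called neither, and it called 11 falls of the list. Irf9, the DNA-binding part of the interferon-activated complex, fell by 0.64 on average. Of 19 interferon-gamma genes 4 fell, among them the GTPases Irgm1 and Tgtp2, both in homozygous mice only and with interaction calls. That number was 8 without control untreated 1, 2 without homozygous untreated 2 or 3, control SCFA 1 or 2, or homozygous SCFA 3, and 0 under the additive model.

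The windows of Isg15 and Rsad2 are shown because they hold the interferon-stimulated response element, searched on both strands as TTTC, any 2 bases and TTTC again, and present in 3.04% of the windows. Isg15 has 3 matches that overlap each other, the first beginning 78 bases before the gene start, and Rsad2 has 1 at 120 bases. Capitals again mark the matched letters.
Isg15 (GRCm38.p6, chr4:156200819-156201068, minus strand): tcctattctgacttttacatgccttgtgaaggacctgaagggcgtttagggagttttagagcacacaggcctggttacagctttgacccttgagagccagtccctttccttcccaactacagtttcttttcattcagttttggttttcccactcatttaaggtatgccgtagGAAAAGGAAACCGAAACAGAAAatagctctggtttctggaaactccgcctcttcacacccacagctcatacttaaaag
Rsad2 (GRCm38.p6, chr12:26456453-26456702, minus strand): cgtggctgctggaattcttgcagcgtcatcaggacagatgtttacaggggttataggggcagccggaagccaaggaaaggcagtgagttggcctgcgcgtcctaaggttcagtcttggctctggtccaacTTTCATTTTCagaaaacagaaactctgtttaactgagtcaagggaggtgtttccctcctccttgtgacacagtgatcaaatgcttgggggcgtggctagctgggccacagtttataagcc

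B lineage genes fell on average in 19 of 22 cases with a median of -1.08, again mostly through homozygous mice (-2.26, against -0.20 in control). Setting the 3 members without a count in homozygous SCFA libraries at the limit of 3 counts left both medians as they were. In both genotypes 4 members fell, among them Igll1, Blk and Cd79a. These were all the falls called in control, where 3 other members were called as rises. The summed level of the list was 4760 to 5400 CPM in control untreated and 5000 to 5460 CPM in control SCFA libraries. In homozygous mice it was 2550 to 2600 CPM untreated and 1080 to 1200 CPM under SCFA. Igll1, the lambda5 part of the pre-B cell receptor, was at 35, 39.1 and 36.3 CPM in control untreated, 23.6, 22.7 and 18.7 in control SCFA, 18.8, 16.6 and 21.5 in homozygous untreated and 0.161, 0 and 0 CPM in homozygous SCFA libraries. In homozygous mice 1100 counts stood against 3, a ratio of 0.00283 (exact 95% interval 0.000583 to 0.00829, counting error only). Vpreb1, its partner chain, had 537 counts against 17 there, a ratio of 0.0328, and -0.77 in control (adjusted p = 0.058). Cd72, a B cell receptor, fell by 2.57 in homozygous mice with -0.27 in control, and shares up to 1423 exon bases with Tesk1 on the other strand. The additive model called 6 falls of the list, and not those of Igll1, Vpreb1 and Cd72.

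Reln, a secreted glycoprotein, Fam129c, a B cell gene, and Myl4, a myosin light chain, had the same form. They fell by 4.12, 4.08 and 4.97 in homozygous mice and had -0.51, -0.30 and -0.54 in control, none of which was called, and the additive model called none of the 3. Fam129c shares up to 404 exon bases with Pgls on the same strand. Plasmacytoid dendritic cell genes fell in 7 of 10 cases, 2 of them in both genotypes. These 2 were Ly6d and Bst2, and Bst2 is also counted in the type I interferon list. Spib, a factor of that lineage and of B cells, fell by 2.50 in homozygous mice and had -0.42 in control (adjusted p = 0.11). Ly6d fell in both genotypes, by 0.49 and 1.70. Of 20 T cell genes 4 fell and 16 were not called, where 3.78% of all genes fell. The list's median was -0.425 in control and 0.00289 in homozygous mice. Lef1 and Il2ra, 2 of the falls, had -2.06 and -3.03 in homozygous mice, and -0.32 and 1.05 in control. Cd4, the gene whose promoter drives the Cre, was not called (-0.99, adjusted p = 0.12). Without homozygous SCFA 3 it was called (adjusted p = 0.0128), as it was with no filter on low counts (0.00723) and by limma-voom (0.0467). In T cell genes 1 fall was called under the additive model, and 1 rise without control untreated 1, control untreated 2, homozygous untreated 2 or control SCFA 1.

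**Figure D5:**
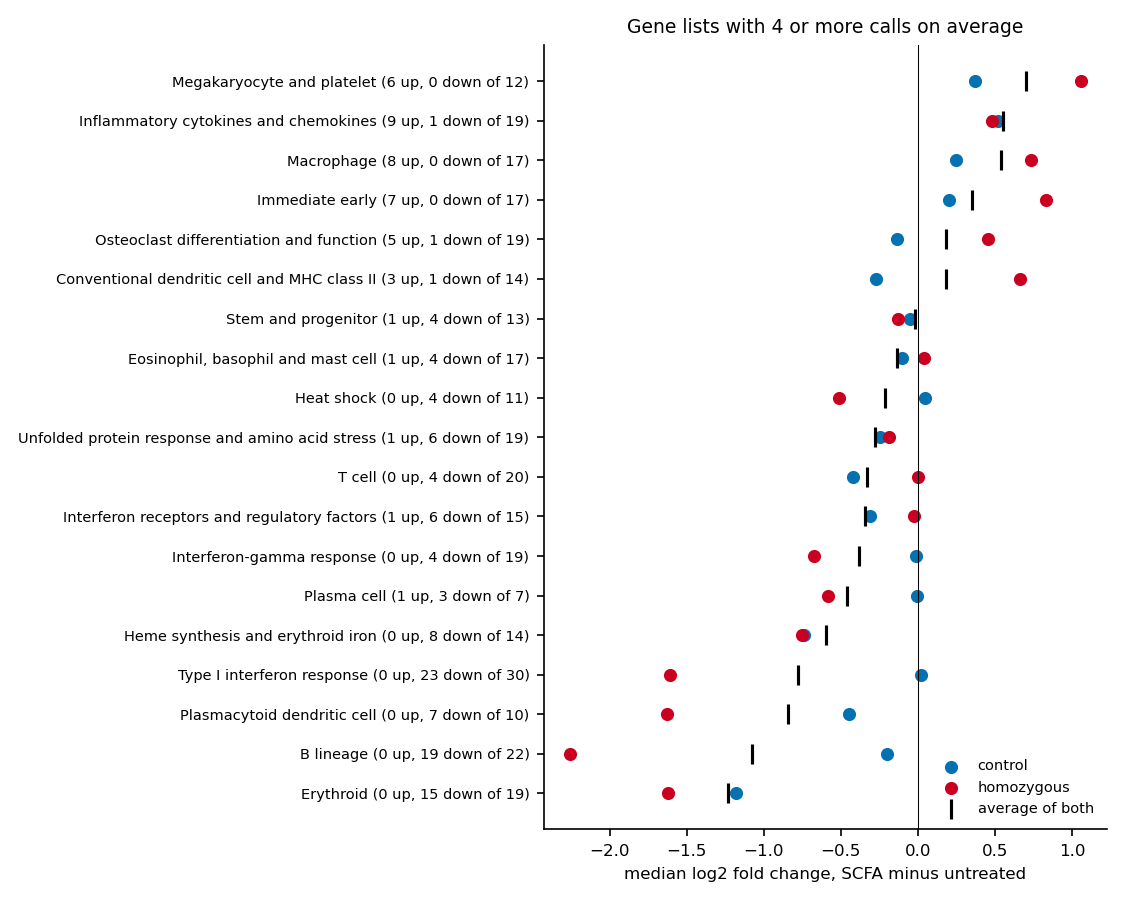
Median log2 fold change of the tested members of each gene list with 4 or more calls on average, in control (blue), homozygous (red) and on average (black bar), with the number of members called up and down in the label. Erythroid genes have medians of -1.18 and -1.62 in the 2 genotypes, and the medians of type I interferon and B lineage genes are 0.02 and -0.20 in control and -1.61 and -2.26 in homozygous mice.

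Genes called in both genotypes with opposite signs have averages that describe neither. Of the 279, 87 rose in control and fell in homozygous mice (0.555% of tested genes) and 192 did the reverse (1.22%). Cecr2, a chromatin remodelling subunit, was at 108, 123 and 109 CPM in control untreated, 145, 159 and 172 in control SCFA, 38.3, 42.8 and 47.9 in homozygous untreated and 1.82, 1.84 and 1.54 CPM in homozygous SCFA libraries. Its average of -2.07 joins 0.48 and -4.62. Il2ra, the interleukin 2 receptor alpha chain, had 1.05 and -3.03, and Snn 0.70 and -2.97. Apoe, the lipid carrier that macrophages secrete, was at 668, 949 and 795 CPM in control untreated, 555, 481 and 424 in control SCFA, 355, 301 and 407 in homozygous untreated and 934, 1420 and 1340 CPM in homozygous SCFA libraries. It fell by 0.72 in control and rose by 1.80 in homozygous mice. Its averaged call (0.54) was lost without control untreated 3 (adjusted p = 0.0508), and the additive model called none of Cecr2, Il2ra, Snn and Apoe. Krt83, Myl9 and Tab1 had the same form, with averages of 0.22, -0.32 and -0.07 that were not called.

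Socs3, the feedback inhibitor of Stat3, was called in both genotypes with opposite signs, and Stat3 itself was called in control mice alone, with an interaction call (adjusted p = 0.011). Stat3 was at 274, 438 and 358 CPM in control untreated, 248, 247 and 223 in control SCFA, 292, 267 and 322 in homozygous untreated and 319, 373 and 397 CPM in homozygous SCFA libraries. It fell by 0.58 in control and had 0.31 in homozygous mice (adjusted p = 0.24), averaging -0.13 (adjusted p = 0.51). Socs3 fell by 1.02 in control and rose by 0.74 in homozygous mice, averaging -0.14 (adjusted p = 0.61). Counts per gene do not tell the STAT3C transcript from the endogenous one.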

How the data were processed

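The deposited table holds raw counts per gene symbol for 12 libraries, 3 in each of 4 groups. Per the submitters' processing notes the authors used STAR, featureCounts and mm10. Tool versions, the gene annotation and the strandedness are not given in these sources. Groups were taken from the sample titles. Of 55291 symbols, 22077 had no count. The quasi-likelihood F test of edgeR 4.0.16 (R 4.3.3), with TMM factors and filterByExpr by group, was fitted to all 12 libraries with 4 group means, leaving 15674 genes. The averaged effect was the mean of the 2 treatment contrasts. Genes were called at a Benjamini-Hochberg adjusted p under 0.05, and SE is the log2 fold change divided by the root of F. Libraries held 16954355 to 20748995 counts, and CPM used these totals multiplied by the TMM factors. Replicates were not merged, since chi-square per degree of freedom was 11.6 to 84.8 between them.

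The members, gene lists and rules were chosen with earlier results of these data known. Named genes were the 12 largest rises and 12 largest falls on average with a mean of at least 5 CPM, the same sign in both genotypes and no overlap of libraries within either, 4 genes at each end of the opposite calls, 2 members per list, those of smallest p, and Stat3, Socs3, Tnfrsf11a, Csf1r, Ffar2 and Cd4. For brevity, list members were then kept only from lists with at least 4 calls, and further list members were added after their values were seen; 5 list members, counted in the lists, are not reported here. Coordinates and exon overlaps are from GENCODE M21, upstream windows from RefSeq GRCm38.p6. Alternatives were RLE factors, no filter, DESeq2 1.42.0, limma-voom (limma 3.58.1) with quality weights, an additive model, the replicate number as a block and each library left out; list calls under the additive model and without each library were added after seeing the data. Counts of 15674 genes were also simulated, with no genotype difference and with changes alike in both genotypes, unlike these data. The averaged contrast called 0 genes without change. With 200 changed genes it recovered 63 of 100 changed 2-fold and 82 of 100 changed 4-fold, with 5 of 150 calls false. Calls in both genotypes recovered 40 of 100 and 73 of 100. Recovery where the genotypes differ was not tested. Python 3.11.15, pandas 2.3.3, scipy 1.17.1 and matplotlib 3.10.9 were used for tables and figures.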

Additional observations from a re-analysis of the deposited data

Results flagged for a closer look

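The 2 treatment effects differed by edgeR's interaction test (adjusted p under 0.05) for 64 of the 109 genes followed here, against 25.1% of all tested genes. Values are the SCFA effect in homozygous mice minus that in control mice on the log2 scale. The followed genes were chosen with results known, so this share describes the choice. What lies behind these differences was not tested.

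Red cell genes stood at -0.82 for Epb42, -0.81 for Fhdc1, -0.94 for Alas2, -0.59 for Fech, -1.84 for Hbb-bs, -1.68 for Hbb-bt and -1.10 for Tfrc, all lower in homozygous mice, and at 0.86 for Gata1 and 3.43 for Car1. Platelet genes stood at 0.80 for Itgb3, 2.12 for Itga2b, 1.80 for Vwf, 1.40 for Tubb1 and 1.04 for Mrvi1. Immediate early genes and mRNA regulators stood at 1.67 for Egr1, 2.23 for Egr2, 1.18 for Fos, 1.73 for Junb and 0.95 for Zfp36. Chemokine and prostaglandin genes stood at 0.93 for Ccl4, -0.79 for Cxcl2 and -1.06 for Hpgds.

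Interferon genes stood at -2.36 for Rsad2, -3.59 for Ifit3, -3.17 for Ifit2, -1.50 for Isg15, -1.72 for Usp18, -1.13 for Oasl1, -0.97 for Oas1a, -1.58 for Irf7, -0.65 for Irf9, -1.57 for Irgm1 and -1.44 for Tgtp2. B lineage and lymphoid genes stood at -7.53 for Igll1, -4.12 for Vpreb1, -2.30 for Cd72, -1.85 for Irf4, -2.08 for Spib, -1.21 for Ly6d, -1.73 for Lef1, -4.08 for Il2ra and -0.77 for Sox4. Further large falls in homozygous mice stood at -4.43 for Myl4, -3.62 for Reln, -3.78 for the B cell gene Fam129c, -5.11 for Cecr2 and -3.68 for Snn. This last group was gathered by its falls, so its negative sign follows from the choice. Every value of the other 2 groups, which hold followed genes with an interaction call, was also negative.

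Macrophage, antigen presentation and osteoclast genes stood at 1.88 for C1qa, 1.67 for C1qb, 1.55 for C1qc, 0.79 for Gpnmb, 2.52 for Apoe, 0.53 for H2-Aa, 1.64 for H2-Ab1, 1.21 for Csf1r, 0.69 for Nfatc1 and 1.01 for Acp5, all higher in homozygous mice, and at -0.82 for Tnfrsf11a. Others were 0.88 for Stat3, 1.76 for Socs3, 0.52 for Prg2, 2.54 for Krt83, 2.20 for Myl9 and 2.18 for Tab1.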

How the results depend on the processing

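With no filter on low counts 812 genes rose on average and 530 were called in opposite directions. DESeq2 called 779 rises, 962 falls, 118 rises in both genotypes and 624 opposite calls, and limma-voom 909, 910, 135 and 1164. The additive model called 140 rises and 180 falls. Leaving out 1 library gave 231 to 891 rises and 362 to 1034 falls on average, 23 to 105 rises and 70 to 148 falls in both genotypes, 49 to 685 opposite calls and 2455 to 5379 interaction calls. RLE factors gave 451 rises and 600 falls, and shared 1025 calls with the 1045 above. The cause of these moves was not tested, apart from the additive model, which by construction adds the disagreement of the genotypes to the residual spread.

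Of 109 genes followed, 92 were called, and 60 of these kept their call in all 18 alternatives, while 32 lost it in at least 1, all 32 under the additive model. No called gene changed sign. Of the 17 not called, 4 gained a call in at least 1 alternative (Cd4, Car1, Itga2b and Vwf). Averages that were not called changed sign for Tab1 (0.0557 by limma-voom, -0.1775 to 0.0937 over the fits without 1 library) and Car1 (-0.9217 to 1.5321 over the fits without 1 library, lowest without control SCFA 2). Replicate numbers did not pair the samples: deviations of same-numbered libraries correlated at -0.0593 to 0.0432. With the replicate number as a block 395 genes rose and 495 fell, and 851 of the 890 calls were among the 1045 above. Depth limits genes below about 0.143 to 0.178 CPM.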
